A study of Mus musculus with 18 samples.

Results

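RNA-seq of sorted regulatory T cells (Tregs) listed 22 genes that were on in both wild-type (WT) libraries and off in both Chd8-/- libraries. On was taken as 3 TPM or more and off as 0.6 TPM or less, where TPM is a read count scaled by gene length and library total. Names starting with Mir, Snor, Hist or Trav, or with Gm and a digit, were left out. The 22 genes are part of 35869 listed names and make up 0.219% of the 10023 names at 3 TPM or more in both WT libraries. They hold Ly86, Sox4, Adamdec1, Ccr3, Adh1, Icam4, Npas4, Pdlim4, Gpd1, Stfa3, the olfactory receptor genes Olfr101 and Olfr164, 5 genes named after clones, 3 unnamed loci, the pseudogene Klk1b7-ps and the short RNA Rn4.5s. The rule used the TPM of all 4 RNA libraries, so the levels and genotype differences of these genes are given as a description, with no test.

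The RNA-seq compared YFP+ cells sorted from splenic CD4+ T cells of 2 Chd8-/- and 2 WT mice, with 1 library per mouse. Chd8-/- libraries carry the label CHD8Flox/FloxFoxp3YFP-Cre, in which a YFP and Cre recombinase fusion is made from the X-linked Foxp3 locus, so that deletion follows Foxp3 expression. WT libraries carry the label CHD8flox/floxFoxp3YFP-Cre/+, which names the floxed allele as well, and the group names WT and Chd8-/- follow the paper. The paper gives Chd8+/+ for its WT mice. It describes YFP+ Tregs of floxed Foxp3YFP-Cre/+ females as CHD8-deficient. Which genotype the WT libraries had was not tested, so whether their cells kept CHD8 rests on the group name. The spleen is the source of all 4 libraries, every library is labelled as Poly IC injection, and the methods give sex-matched littermates of 5 to 7 weeks.

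Tregs are CD4+ T cells that hold back other immune cells and depend on the transcription factor Foxp3. CHD8 is an ATP-dependent chromatin remodeler of the chromodomain helicase family that binds at promoters and enhancers. Gene silencing in a lymphocyte can leave a transcript at or near 0, and in sequencing of low-level genes a transcript can also be listed at 0 because few reads were drawn. The number of reads behind each value is therefore given beside the levels.

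Chd8 itself was at 14.9 and 11.4 TPM in the Chd8-/- libraries and 24.7 and 27.6 TPM in the WT libraries, a log2 fold change of -0.95 ± 0.29 (SE, n = 2 per genotype, adjusted p = 0.455 in limma). Foxp3 was between 203 and 232 TPM in all 4 libraries, and all 12 listed Treg markers were above 0 in each. Of the 12, 7 were higher in both Chd8-/- libraries than in both WT libraries and 0 were lower in both. The 12 summed to 3750.9 and 3042.3 TPM in Chd8-/- and 2425.7 and 2484.8 TPM in WT. Xist was between 500.2 and 843.3 TPM, and Kdm5d, Eif2s3y, Uty and Ddx3y on the Y chromosome were listed at 0 in every library, while the legend of the RNA-seq describes both sexes in each genotype. The libraries held an estimated 9700000 to 13800000 reads on genes. Chd8-/- replicate 2 stood apart in markers of other cells. The sum of 10 myeloid markers was 1451.0 TPM there, 26.3 TPM in Chd8-/- replicate 1, and 108.7 and 81.0 TPM in the WT libraries, and that of 8 erythroid and platelet markers was 1989.7, 9.0, 385.2 and 351.9 TPM in the same order.

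In limma on log2(TPM + 1), 0 of 15240 genes passed an adjusted p-value of 0.05 with a log2 fold change of at least 1, and 1555 genes had an unadjusted p-value under 0.05. The smallest adjusted p-value was 0.0807. A log2 fold change of -1 or lower was found for 1768 genes, 11.6% of those tested, and of 1 or higher for 781 genes. After quantile normalization these counts were 1326 and 1073, and the middle of all log2 fold changes moved from -0.15 to -0.02. All 22 genes chosen by the rule lay past -1, as the rule requires of them. Both Chd8-/- libraries were below both WT libraries in 27.8% of the genes tested and, by construction, in all 22.

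**Figure D1:**
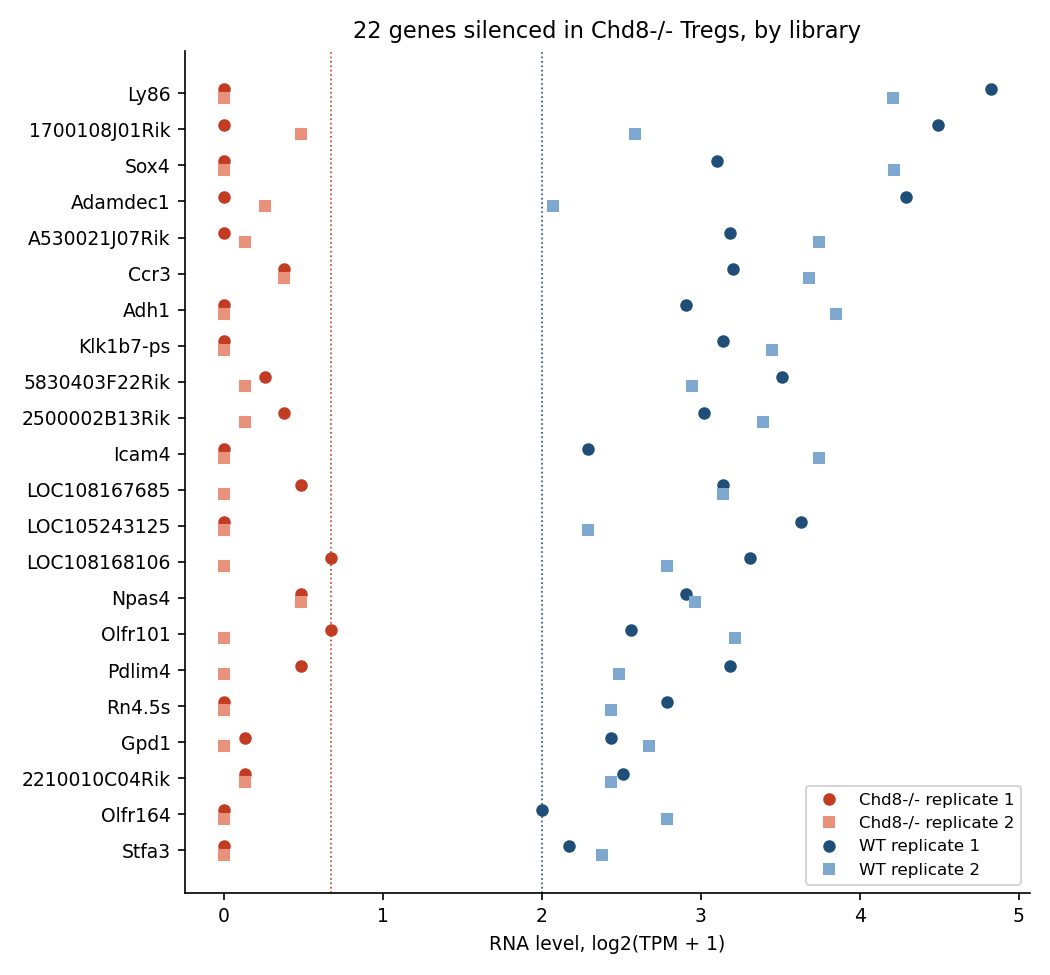
RNA level of the 22 genes, in log2(TPM + 1), with 1 point for each library (red, Chd8-/-; blue, WT; circles, replicate 1; squares, replicate 2) and dotted lines at the 0.6 and 3 TPM limits of the rule. Ly86 had the highest WT mean, 22.45 TPM. In both Chd8-/- libraries, 9 genes were listed at 0.

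Among the transcription factors, Sox4, a high-mobility-group transcription factor used in lymphocyte development, was listed at 0 TPM in both Chd8-/- libraries and at 7.6 and 17.6 TPM in the WT libraries. About 177 and 435 reads lay behind the WT values. By counting error alone, the level was at least 35.5-fold lower in the Chd8-/- libraries. Such a bound sets the one-sided 95% Poisson limit below the lower WT library against the higher of the limits that a listed 0 allows in the Chd8-/- libraries. The latter is 3 reads, or the one-sided 95% Poisson limit where more reads would still round to 0 TPM. These bounds, and the counting intervals given below, cover counting error only. They leave out the spread between mice and the choice of the genes by these same values, so they describe these libraries. The log2 fold change of Sox4 was -3.66 ± 0.54. GENCODE places an antisense transcript, Gm26735, over 2616 nt of its exon. RefSeq has a long noncoding RNA gene, Gm46405, that overlaps Sox4 on the same strand. Whether reads were lost to or shared with it was not tested. Sox11 was at 0 in all 4 libraries and Sox12 was at 3.0 TPM or below in all of them, so neither relative stood at the Sox4 level of WT Tregs.

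Npas4, a basic helix-loop-helix factor known from neurons as an early response to activity, was at 0.4 TPM in both Chd8-/- libraries and at 6.5 and 6.8 TPM in the WT libraries. Its WT libraries differed 1.05-fold, with only LOC108167685 closer among the 22 genes. RefSeq gives Npas4 the longest exons of the set, 16747 nt, and the estimated reads were 45 and 35 against 531 and 589. Stretches of at least 100 nt in these exons match 953 other genes at 90% identity or more, the longest being 1757 nt with AC124502.5 on the same strand, so whose reads these are is uncertain. On the log2 scale the difference was -2.45 ± 0.39. Of 4 other early response genes looked up after the values were seen, Arc was at 0.8 and 0.2 against 4.6 and 2.1 TPM. In contrast, Egr1 was between 197.0 and 212.2 TPM in every library. Fos overlapped between the genotypes, and Nr4a1 was at 12.6 and 14.6 against 17.1 and 17.5 TPM.

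Ly86 encodes MD-1, a secreted protein that pairs with the surface receptor CD180 on B cells and myeloid cells. It was listed at 0 TPM in both Chd8-/- libraries and at 27.4 and 17.5 TPM in WT, with about 133 and 90 reads behind the WT values. By the same bound, the level was at least 25.5-fold lower in the Chd8-/- libraries. Cd180, its partner, was at 0.4 and 39.8 TPM in Chd8-/- and 4.1 and 5.1 TPM in WT. Chd8-/- replicate 2 had the highest Cd180, myeloid sum and B cell sum of the 4 libraries (145.8 TPM for 8 B cell markers, against 33.5 to 48.4 TPM). The related Ly96 was between 18.0 and 34.8 TPM and did not separate the genotypes. In bulk libraries, fewer cells of a type and less RNA per cell cannot be told apart.

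**Figure D2:**
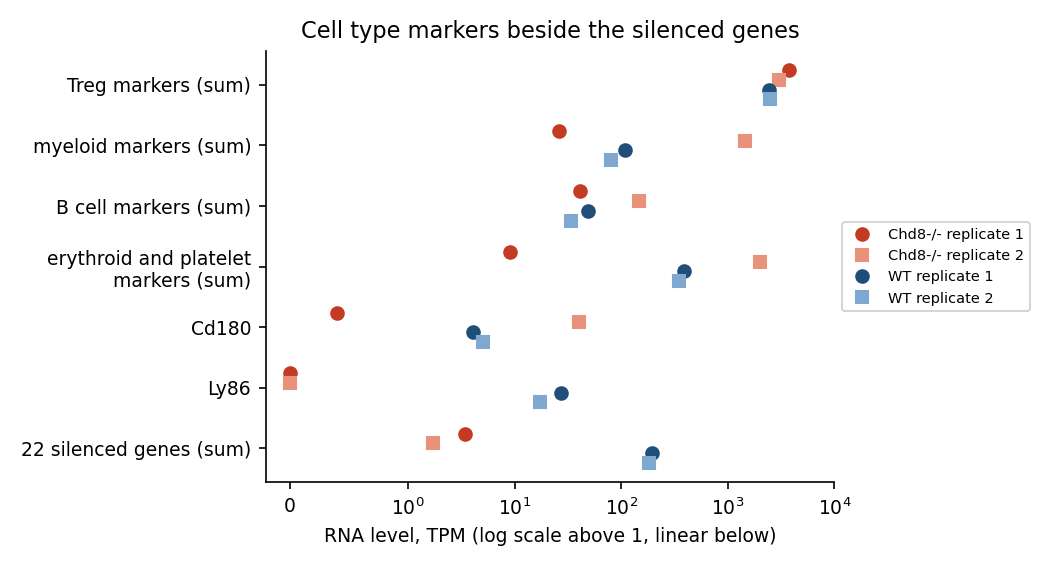
Summed TPM of Treg, myeloid, B cell and erythroid and platelet markers beside Cd180, Ly86 and the sum of the 22 genes, with 1 point for each library. Chd8-/- replicate 2 was highest for the summed myeloid, B cell and erythroid markers and for Cd180. Ly86 was at 0 in both Chd8-/- libraries. The 22 genes summed to 3.4 and 1.7 TPM in Chd8-/- and 196.2 and 181.0 TPM in WT.

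Ccr3, the eotaxin receptor known from eosinophils, was at 0.3 TPM in both Chd8-/- libraries and at 8.2 and 11.8 TPM in the WT libraries. The estimated reads were 7 and 5 against 137 and 209, a ratio of 34.3 with a 95% counting interval of 19.7 to 66.5 from the Chd8-/- reads alone. The neighbouring chemokine receptor genes Ccr1 and Ccr2 did not share this pattern. Ccr2 was at 14.9 and 14.4 TPM in Chd8-/- and 19.2 and 14.3 TPM in WT, and Ccr1 was highest in Chd8-/- replicate 2, at 5.8 TPM, and at 0.4 TPM or below in the other libraries. Ccr8, a receptor of activated Tregs, was at 101.1 and 86.2 TPM in Chd8-/- and 26.8 and 49.4 TPM in WT, a log2 fold change of 1.33 ± 0.36 (adjusted p = 0.434 in limma).

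Icam4, an adhesion molecule known from red blood cells, was listed at 0 in both Chd8-/- libraries and at 3.9 and 12.4 TPM in WT. The WT libraries differed 3.18-fold, and GENCODE places an antisense transcript, Gm47079, over 660 nt of its exons. Its neighbour Icam1 was between 58.5 and 65.4 TPM in all libraries, and Icam5, on the other side, was at 5.0 and 0.4 against 1.7 and 4.2 TPM. The summed erythroid and platelet markers of both WT libraries lay between those of the Chd8-/- libraries. Of the 8 markers, only Alas2 separated the genotypes, at 8.0 and 7.5 TPM in Chd8-/- and 15.0 and 21.5 TPM in WT. The part of other cells in these values was not tested.

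Among the enzymes, Adh1, a class I alcohol dehydrogenase that oxidises ethanol and retinol, was listed at 0 in both Chd8-/- libraries and at 6.5 and 13.4 TPM in WT. The level was at least 12.14-fold lower. Adh4, between Adh1 and Adh5, was at 1.0 and 0 TPM in Chd8-/- and 2.7 and 0.9 TPM in WT. Adh5, the ubiquitous class III enzyme, was at 59.1 and 40.9 TPM in Chd8-/- and 35.7 TPM in both WT libraries. Gpd1, the cytosolic glycerol-3-phosphate dehydrogenase, was at 0.1 and 0 TPM in Chd8-/- and 4.4 and 5.4 TPM in WT. Estimated reads of Gpd1 were 2 and 0 against 60 and 78, a ratio of 82.4 with a counting interval of 22.8 to 680.5 from the Chd8-/- reads alone. Gpd1l, the related enzyme, was between 29.5 and 35.4 TPM, and Gpd2, the mitochondrial partner in the glycerol phosphate shuttle, ranged from 5.9 to 12.9 TPM with overlapping groups.

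Both genes flanking Gpd1 were also lower in each Chd8-/- library than in each WT library, as were 27.8% of all genes tested. Smarcd1, a subunit of the SWI/SNF remodeler, was at 16.4 and 5.8 TPM in Chd8-/- and 26.2 and 26.3 TPM in WT. Cox14, an assembly factor of cytochrome c oxidase, was at 138.4 and 102.9 against 193.3 and 248.2 TPM. Neither passed the test (adjusted p = 0.51 and 0.446 in limma). Across all 22 loci, 40 tested genes lay within 100 kb of a member. Their median log2 fold change was -0.14, beside -0.13 for all tested genes under the same name rule. Of the 40, 6 were at -1 or lower, beside 11.6% of all genes tested.

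Adamdec1, a secreted metalloprotease-like protein known from macrophages and dendritic cells, was at 0 and 0.2 TPM in Chd8-/- and 18.6 and 3.2 TPM in WT. The WT libraries differed 5.81-fold, the widest gap of the 22 genes, and WT replicate 2 lay close to the limit of the rule. Adamdec1 lies on chromosome 14, 16.3 Mb from Chd8, and its neighbours Adam7 and Adam28 were at 0.1 TPM or below in all libraries. Pdlim4, a PDZ and LIM domain protein of the actin cytoskeleton, was at 0.4 and 0 TPM in Chd8-/- and 8.1 and 4.6 TPM in WT. Pdlim1, by far the most abundant of the family here, was between 134.0 and 205.1 TPM with overlapping groups.

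Stfa3, a stefin that inhibits cysteine proteases and is known from neutrophils, was listed at 0 in both Chd8-/- libraries and at 3.5 and 4.2 TPM in WT. Only about 7 and 9 reads lay behind the WT values, and by the same bound the level was at least 1.18-fold lower in the Chd8-/- libraries. Stfa1 and Stfa2 were at 0 in all libraries. Cstb, the ubiquitous stefin B, was at 167.5 and 143.4 TPM in Chd8-/- and 88.5 and 69.0 TPM in WT (log2 fold change 0.98 ± 0.22, adjusted p = 0.41 in limma).

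Olfr101 was at 0.6 and 0 TPM in Chd8-/- and 4.9 and 8.3 TPM in WT, and Olfr164 was at 0 in both Chd8-/- libraries and at 3.0 and 5.9 TPM in WT. Both belong to the olfactory receptors, of which 8 genes reached 3 TPM in both WT libraries. Olfr101 shares 96.0% identity over 1026 nt with its neighbour Olfr102, so reads could be divided between the pair. Olfr102 was at 1.2 TPM or below in every library. Olfr99, in the same cluster, was at 73.5 and 18.0 TPM in Chd8-/- and 78.6 and 28.6 TPM in WT, so it did not share the pattern of Olfr101.

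The clone-named genes and unnamed loci include 5 long noncoding RNAs. 5830403F22Rik lies on the same strand inside Adam12 and was at 0.2 and 0.1 TPM in Chd8-/- and 10.4 and 6.7 TPM in WT, with about 428 and 293 reads in WT. Adam12, which shares 1358 nt of transcript with it, was at 4.4 and 1.5 against 8.1 and 6.3 TPM. 2500002B13Rik, between Sap30 and Hmgb2, was at 0.3 and 0.1 against 7.1 and 9.5 TPM, while Hmgb2 was at 207.5 and 231.8 against 160.5 and 168.0 TPM. 1700108J01Rik, antisense within Clybl, was at 0 and 0.4 against 21.5 and 5.0 TPM, a 4.3-fold gap between the WT libraries.

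LOC105243125, antisense within Mcf2l, was listed at 0 in both Chd8-/- libraries and at 11.4 and 3.9 TPM in WT, at least 11.45-fold lower in Chd8-/-. Mcf2l was at 0 in all libraries. LOC108168106 was at 0.6 and 0 against 8.9 and 5.9 TPM, and lies next to Rps23, a ribosomal protein gene at 4443.6 to 5097.3 TPM in every library. LOC108167685 was at 0.4 and 0 TPM in Chd8-/- and at 7.8 TPM in both WT libraries, and was not matched to a gene of the annotation used.

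A530021J07Rik, a protein-coding gene of chromosome 7, was at 0 and 0.1 TPM in Chd8-/- and 8.1 and 12.4 TPM in WT. 2210010C04Rik, inside the span of the T cell receptor beta locus on the opposite strand, was at 0.1 TPM in both Chd8-/- libraries and at 4.7 and 4.4 TPM in WT. Klk1b7-ps, a pseudogene of the glandular kallikreins, was listed at 0 in both Chd8-/- libraries, against 7.8 and 9.9 TPM in WT. Its neighbour Klk15 was at 0.5 and 0.1 TPM in Chd8-/- and 1.9 TPM in both WT libraries. Rn4.5s, a short noncoding RNA of 174 nt, was listed at 0 in both Chd8-/- libraries, against 5.9 and 4.4 TPM in WT.

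Rn4.5s rests on the fewest reads, about 5 and 4 in WT, and a listed 0 allowed 2.56 and 3.27 TPM in the Chd8-/- libraries. The fold bound defined for Sox4 came to 0.46 for Rn4.5s, below 1, so this bound sets no lower limit on its difference. Over the 21 genes with an exon length, the lower WT library held between 4 and 531 estimated reads, with a median of 44. Rn4.5s, Stfa3 and no other gene of the set had fewer than 10 reads in a WT library. In the Chd8-/- libraries no gene except Npas4 had more than 11 reads. These estimates took RefSeq exon lengths and the TPM step of 1 read in genes under 200 nt, where 99.0 to 99.5% of values came out within 0.2 of a whole read.

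**Figure D3:**
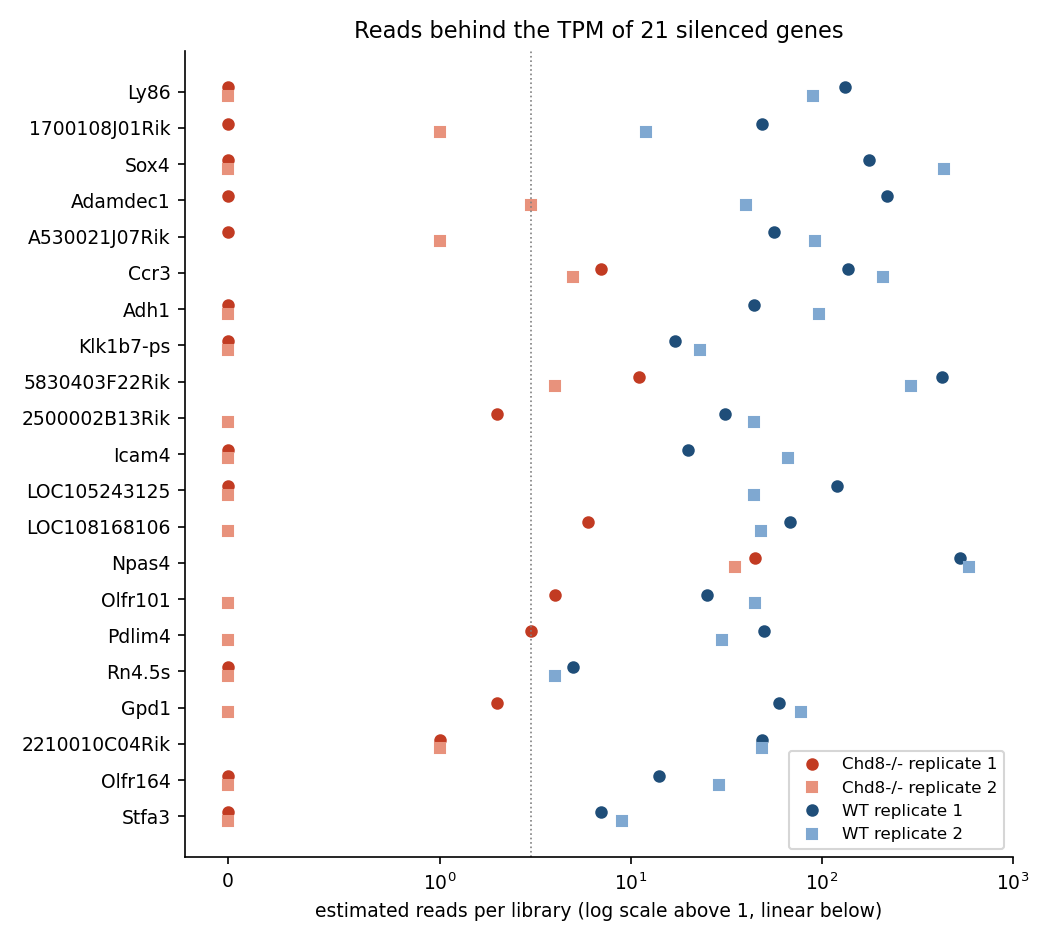
Estimated reads behind the TPM of 21 genes, with 1 point for each library on an axis that is logarithmic above 1 and linear below, and a dotted line at 3 reads. WT points range from 4 to 589 reads, and Chd8-/- points from 0 to 45 reads, with only Npas4 above 11.

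Of the 22 genes, 9 were listed at 0 in both Chd8-/- libraries, and 5 were above 0 in both. A further 5 were above 0 in Chd8-/- replicate 1 alone and 3 in replicate 2 alone. In WT Tregs, 9 genes were higher in replicate 1, 12 in replicate 2 and 1 was equal. The higher WT library exceeded the lower by a median of 1.54-fold over the 22 genes, beside 1.26-fold over the 4819 genes in the same range of WT means. More than 2-fold lay between the WT mice in 6 of the 22 genes. The log2 fold changes ran from -4.52 for Ly86 to -2.27 for Stfa3, with a median of -2.96.

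The values nearest to the limits were close to those of genes that missed them. Inside, LOC108168106 and Olfr101 reached 0.6 TPM in a Chd8-/- library, and Olfr164 and Adamdec1 had 3.0 and 3.2 TPM in their lower WT library. Outside, Ppp1r3e, Reck, Slc39a2 and Wwox had 0.8 TPM in their higher Chd8-/- library and E230029C05Rik had 0.9 TPM. 5033430I15Rik and LOC108167882 had 2.9 TPM in their lower WT library, LOC102642435 had 2.8 TPM, and Hcar2 and Slc16a11 had 2.7 TPM.

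The opposite pattern, off in both WT and on in both Chd8-/- libraries, was met by 25 genes, 0.268% of the 9312 names at 3 TPM or more in both Chd8-/- libraries. Within a genotype, 312 genes were off in Chd8-/- replicate 1 and on in replicate 2, and 339 genes the other way round. The WT libraries gave 158 and 113 such genes. These counts ask for 1 library on each side where the rule asks for 2, so they are larger by construction. Of the 10023 genes on in both WT libraries, 94 were off in Chd8-/- replicate 1 and 233 in replicate 2, and 22 were off in both. Without Chd8-/- replicate 1 the rule gave 233 genes and without replicate 2 it gave 94. Without WT replicate 1 or 2 it gave 116 and 88 genes.

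**Figure D4:**
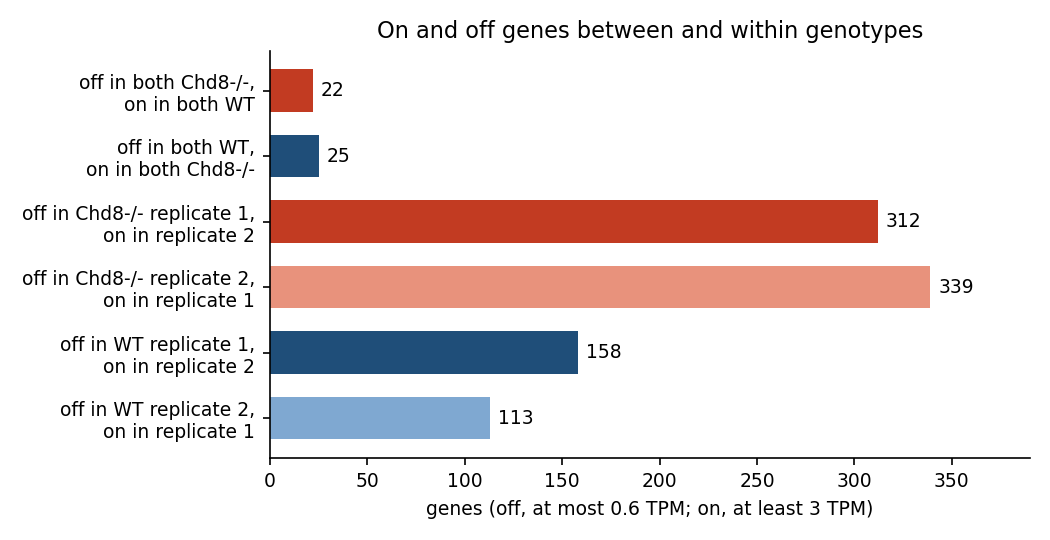
Number of genes off (at most 0.6 TPM) on one side and on (at least 3 TPM) on the other, between the genotypes with 2 libraries on each side (upper 2 bars) and between the replicates of a genotype with 1 library on each side (lower 4 bars). Between the genotypes 22 and 25 genes met the pattern, and between replicates 113 to 339 genes.

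The 22 genes lie on at least 12 chromosomes, with 2 on chromosome 14. Of the 21 with a gene class, 14 are protein-coding (66.7%), beside 92.5% of the genes at 3 TPM or more in both WT libraries, and 5 are long noncoding RNAs (23.8%, beside 6.1%). Exons were shorter, with a median of 1401 nt beside 3388 nt. These shares and lengths were not matched for WT level. The median WT mean was 7.97 TPM in the 22 genes and 22.5 TPM in the wider set. In the same range of WT means as the 22 genes, 0.457% of 4819 genes met the rule. Of the names on in both WT libraries, unnamed loci gave 3 members of 359, clone-named genes 5 of 510 and olfactory receptors 2 of 8, beside 0.219% of all. The zinc finger list, the largest of the function lists with 302 genes on in both WT libraries, held 0 members, and at 0.219% a list of that size or smaller would hold fewer than 1.

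Promoter windows of RefSeq (GRCm38.p6, 250 bases before to 50 after a start) were found for 15 of the 22 genes, 16 windows in all. The windows follow annotated starts, which were not checked as transcription starts. They include those of Olfr101 and Olfr164, each annotated with 1 exon. CpG dinucleotides were sparse in most of the 16 windows. The ratio of observed to expected CpG had a median of 0.33, beside 0.75 for the genes in the same range of WT means and 0.38 for all 32851 windows. A ratio of at least 0.6 was reached in 5 of 16 windows (31.2%), beside 68.8% in the genes of the same WT range and 35.8% in all. These 5 windows belong to Pdlim4, 2500002B13Rik, Ly86, Sox4 and Npas4, and GC content had a median of 48.2%, beside 60.3% in the genes of the same range.

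**Figure D5:**
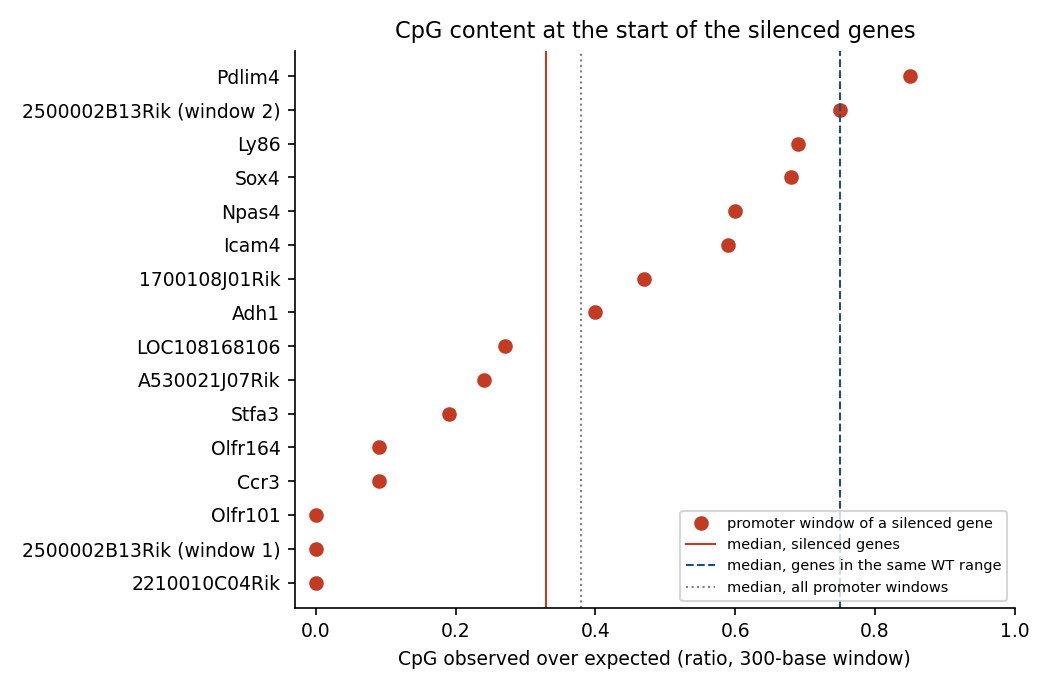
Observed over expected CpG in 16 promoter windows of 15 silenced genes, with 1 point a window and lines at the medians of the silenced genes (0.33), of genes in the same range of WT means (0.75) and of all windows (0.38). Most points lie left of the median of genes with like WT levels, and Pdlim4 lies highest at 0.85.

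The motif GGGCGG, the GC box, was found on either strand in 4 of 16 windows (25%), beside 61.2% in genes of the same WT range and 35.7% in all windows. TATAAA was found in 3 windows (18.8%, beside 6.72% and 13.6%) and CCAAT in 9 (56.2%, beside 37.5% and 37.4%). CACGTG was found in 1 window (6.25%, beside 10.4% and 7.15%) and GGAAGT in 4 (25%, beside 29.1% and 23.8%). With 16 windows, 1 window more or less moves a share by 6.25 percentage points.

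The 100 bases before the annotated start are shown for the 6 protein-coding genes listed at 0 in both Chd8-/- libraries. Each is written 5′ to 3′ on the strand of its gene from RefSeq GRCm38.p6, with matches to the 5 motifs in capitals. A match on the other strand appears as its reverse complement.
Ly86, chr13:37345245-37345344, plus strand: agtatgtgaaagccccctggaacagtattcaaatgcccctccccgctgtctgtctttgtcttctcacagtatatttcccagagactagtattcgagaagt
Sox4, chr13:28953700-28953799, minus strand: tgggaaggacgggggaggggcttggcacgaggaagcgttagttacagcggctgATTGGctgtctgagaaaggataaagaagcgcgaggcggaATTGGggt
Adh1, chr3:138277485-138277584, plus strand: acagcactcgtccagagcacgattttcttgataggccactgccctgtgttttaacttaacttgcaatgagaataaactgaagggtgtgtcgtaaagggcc
Icam4, chr9:21029332-21029431, plus strand: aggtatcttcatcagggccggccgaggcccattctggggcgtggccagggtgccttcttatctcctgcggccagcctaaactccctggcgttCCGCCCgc
Olfr164, chr16:19286742-19286841, minus strand: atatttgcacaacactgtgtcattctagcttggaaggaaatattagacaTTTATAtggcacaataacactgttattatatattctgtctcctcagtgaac
Stfa3, chr16:36455393-36455492, minus strand: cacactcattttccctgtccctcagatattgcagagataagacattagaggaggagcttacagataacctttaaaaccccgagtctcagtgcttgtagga

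The Sox4 sequence held 2 matches to CCAAT and 7 CG dinucleotides, and that of Icam4 1 match to GGGCGG and 7 CG dinucleotides. Olfr164 held no CG and 1 match to TATAAA. RefSeq gives Olfr164 1 exon of 948 nt, and whether its annotated start is a transcription start was not tested. Those of Ly86, Adh1 and Stfa3 held none of the 5 motifs. A match of letters is a description of the sequence and not a bound site, and the ATAC-seq and CHIP-seq of the study were not analysed here at these promoters.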

How the data were processed

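RNA-seq of 2 WT and 2 Chd8-/- mice was used. The authors trimmed the reads (Trim Galore 0.4.2, cutadapt 1.9.1), aligned them to mm10 with STAR 2.6.1e, removed duplicates, counted RefSeq genes with featureCounts 1.6.2, and deposited TPM rounded to 0.1. Strand use in counting is not given in the sources used here, so overlapping and antisense genes may share reads. ATAC-seq and CHIP-seq tables hold peaks on mm39 without gene names, and no annotation of that build was used here.

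Names were matched to RefSeq GRCm38.p6 (96.8%). Reads were estimated from exon length and the TPM step. For genes at 1 TPM or more in 2 libraries, log2(TPM + 1) was fitted by genotype in limma 3.58.1 (R 4.3.3) with a mean-variance trend, and two-sided p-values were adjusted after Benjamini and Hochberg, with calls at 0.05 and a log2 fold change of 1. The limma and read estimates were tested on simulated data. Copies were searched with blastn 2.17.0 (90% identity, 100 nt). Python 3.11.15, numpy 2.4.6, pandas 2.3.3, scipy 1.17.1 and matplotlib 3.10.9 were used.

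All 22 members are named, with up to 5 genes nearest to each limit on each side. Relatives and neighbours were chosen after their values were seen. The members and lists were chosen with earlier results of these data known. Alternatives tried were other TPM limits, pseudocounts and filters, a replicate block, quantile normalization, no mean-variance trend and leaving out each library. Counting all names and asking for 10 reads were added after the data were seen.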

Additional observations from a re-analysis of the deposited data

How the results depend on the processing

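The number of genes that met the rule was 48 at 2 TPM or more in WT, 12 at 5 TPM or more and 61 with all names counted, and ranged from 88 to 233 with 1 library left out, as looser or fewer limits admit more genes. It was 16 at 0.3 TPM or less in Chd8-/- and 32 at 1 TPM or less. It was 20 with exons of at least 200 nt and 19 with at least 10 estimated reads in each WT library. These counts of 20 and 19 also leave out LOC108167685, which had no exon length. After quantile normalization the number was 16, all 16 among the 22 genes. The log2 fold changes of the 22 genes kept their sign in all 226 values recomputed. They ran from -7.78 to -3.75 with a pseudocount of 0.1 TPM and from -2.43 to -0.82 with 5 TPM, since a pseudocount near the level of a gene sets its ratio.

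Over all genes, limma called 4 genes higher and 3 lower with no filter on low values and 2 higher with a mean TPM of at least 5, and none of these was a member. Genes at a log2 fold change of 1 or more numbered 362 with a pseudocount of 5 TPM and 989 to 1371 with 1 library left out. Those at -1 or lower numbered 690 with a pseudocount of 5 TPM, 1149 with a mean TPM of at least 5, and 1445 to 3104 with 1 library left out. When 1 library was left out, the lone library of its genotype was assumed to vary like the other pair. With the replicate number as a block, 0 genes were called in limma, 1336 had an unadjusted p-value under 0.05, the smallest adjusted p-value was 0.552, and 781 and 1768 genes passed the fold limits. The numbers were not taken to pair the mice, since deviations of same-numbered libraries correlated at -0.0117 across genes.

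Depth limits Rn4.5s and Stfa3 most, with 4 to 9 estimated reads in WT. Other settings for ATAC and CHIP values at promoters were not run, since those peaks are on mm39.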

Other observations

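The name rule left out 39 genes that met the same limits. They were 15 microRNA genes, 23 genes named Gm and a number, and 1 small nucleolar RNA, Snord88a. The microRNA genes had a median exon length of 87 nt and rest on few reads. In the lower WT library they held 1 to 6 estimated reads, 3 reads or fewer in 10 of the 15, although Mir6918 had a WT mean of 66.75 TPM, above that of every one of the 22 genes. The 21 Gm genes with an exon length held 6 to 163 reads in the lower WT library, with a median of 22 and 10 or more in 19 of them.

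Sap30, which encodes a subunit of the SIN3A histone deacetylase complex and neighbours 2500002B13Rik, was at 1.8 and 10.3 TPM in Chd8-/- and 19.3 and 0 TPM in WT, so that an on and off difference lay between the 2 WT mice. 4930479D17Rik, at 24.0 TPM in WT replicate 2, and LOC108167744, at 34.8 TPM in WT replicate 1, were the genes with the highest level that were off in the other WT library.

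Try5, a trypsinogen gene in the T cell receptor beta locus like 2210010C04Rik, was at 2.8 TPM in WT replicate 1 and at 0 in the other 3 libraries. Prss2, another one, was at 11.3 and 0 TPM in Chd8-/- and 5.5 and 8.4 TPM in WT. Try4 and Try10, of the same family, were at 0 in both Chd8-/- libraries. In WT, Try4 was at 0.5 TPM in both libraries and Try10 was at 0.5 and 0.4 TPM.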
